A study of Saccharomyces cerevisiae with 28 samples.

Results

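The subject is the chromatin of the rDNA origin in *cdc6-1* cells arrested in G1, profiled by MNase-seq at 23°, where the temperature-sensitive Cdc6 works, and at 37°, where it does not. By the sample labels, 2 of the 28 samples of the series are *cdc6-1* MNase-seq samples, 1 at each temperature, and both were used. They were compared base by base over 2001 positions of chromosome XII (sacCer3) that end at 460000 and hold the origin near their middle. The other 4 MNase-seq samples, WT and *sir2* cells in G1 and in G2 with 1 library each, are given beside them. The rest of the series is Mcm2-ChEC and sonicated DNA.

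The *cdc6-1* strain is *MATa*, is of S288C background and carries the *cdc6-1*(ts) allele marked with KanMx. It is a single strain. The WT and *sir2* (*sir2*Δ::KanMx) strains carry *hml*α::HygR, which is not in the genotype given for the *cdc6-1* strain. The *cdc6-1* culture was first held in G2 with nocodazole at 23°, then washed and released into medium with alpha factor at 23° or at 37°. WT and *sir2* cells were arrested at a temperature between these with alpha factor for G1 or nocodazole for G2, with no such release. The G1 arrest was longer at 23° than at 37°. Loss of Cdc6 function, heat and the length of the arrest therefore cannot be told apart here. The MNase amount in the library names is 7.5 U for both *cdc6-1* libraries and for WT and *sir2* in G1, and 3.75 U for both G2 libraries. With 1 library per condition, no difference below has a replicate check and none was tested. The 95% intervals cover counting error only.

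A replication origin is licensed in G1, when the origin recognition complex (ORC) and Cdc6 load the Mcm2-7 helicase as a double hexamer onto DNA. Mcm2-7 is a main part of the pre-replicative complex (pre-RC), which forms at origins in G1. Cdc6 is an ATPase that binds ORC on the DNA and is required for this loading. Each rDNA repeat carries one such origin, the rARS, in the spacer between the 5S gene and the 35S gene, and the signal described here is summed over all repeats of all cells. Micrococcal nuclease (MNase) digests DNA that is not covered by protein, so that the reads mark nucleosomes and smaller bound factors.

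The first base of the rARS is 458991, the start of the origin that the RefSeq annotation names ARS1200-1 (458991 to 459097, plus strand). All distances below are counted from this base, with minus to its left. The origin is intergenic and lies in the spacer NTS2-1 (458433 to 459675), which is part of *IGS2*. To the left is the 35S gene RDN37-1 (451575 to 458432, minus strand), whose first transcribed part is the external spacer ETS1-1 (457733 to 458432). To the right is the 5S gene RDN5-1 (459676 to 459796, plus strand), followed by NTS1-2 (459797 to 460711), which belongs to *IGS1*. Nucleosome 1, the longest runs of lower and of higher bases and the origin are shown, because the results below turn on them. They read as follows on the plus strand of the RefSeq S288C reference.
Nucleosome 1, 458750 to 458911, with capitals for the blocks of 50 bases that follow the largest rises in depth there: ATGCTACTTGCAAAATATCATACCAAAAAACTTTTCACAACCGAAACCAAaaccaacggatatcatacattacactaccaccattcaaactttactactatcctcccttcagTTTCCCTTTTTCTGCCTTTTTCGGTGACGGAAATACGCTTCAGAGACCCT
Longest run of bases lower at 37°, 458875 to 458996, with capitals right of nucleosome 1: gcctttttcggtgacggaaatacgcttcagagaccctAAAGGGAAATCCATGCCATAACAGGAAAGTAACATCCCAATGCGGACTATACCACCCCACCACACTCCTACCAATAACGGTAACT
ARS1200-1, 458991 to 459097, with capitals for matches to the ARS consensus: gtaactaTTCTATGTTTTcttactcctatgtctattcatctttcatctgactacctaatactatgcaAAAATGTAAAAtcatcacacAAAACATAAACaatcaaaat
Longest run of bases higher at 37°, 458428 to 458537, with capitals for the bases of NTS2-1: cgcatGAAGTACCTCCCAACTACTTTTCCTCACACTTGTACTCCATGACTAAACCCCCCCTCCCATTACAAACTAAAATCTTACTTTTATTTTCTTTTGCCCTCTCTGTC

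The ARS consensus is the T-rich motif of 11 letters that ORC recognizes. It was searched on both strands. In ARS1200-1, 1 site matched all 11 letters (459058 to 459068, minus strand) and 2 sites matched 10 letters (458998 to 459008, plus strand, and 459078 to 459088, minus strand). Of the windows of 107 bases along chromosome XII, 10.5% hold a site with at least 10 letters. The lower run ends at 458996, 2 bases before the first of these 3 sites. The GC content is 47.5% over the 80 bases from nucleosome 1 to the rARS (458912 to 458991) and 27.1% over the origin, against 40.9% over the whole interval.

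The 23° library held about 759788 reads in the interval and the 37° library about 1123381, taken as the sum of the depths over 50, the bases in a read. The mean depth was 18985 at 23° and 28070 at 37°. Both libraries were highest at 458315, inside ETS1-1, with 63194 reads at 23° and 96189 at 37°. To compare them, the depth was divided by the mean depth over the footprint of Reb1 (458591 to 458721), a transcription factor that binds beside c-pro, an RNA polymerase II promoter repressed by Sir2. The study used this scale for fragments of small size only. The depths used here carry no fragment sizes, so its selection by size could not be repeated and fragments of all sizes are summed. This mean was 29826 at 23° and 44500 at 37°, or 1.57 and 1.59 times the interval mean. Scaling to the Reb1 footprint and scaling to total depth were therefore nearly the same here, and the ratio of 37° to 23° differed between them by a factor of 1.01 at each base.

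The footprint that serves as the scale holds 1 copy of the Reb1 core motif, TTACCCG or its reverse complement CGGGTAA, at 458638 to 458644 on the minus strand, where 0.899% of windows of this length along the chromosome hold one on either strand. The sequence of this window is shown because all values below are relative to it, with the motif in capitals.
Reb1 footprint, 458591 to 458721: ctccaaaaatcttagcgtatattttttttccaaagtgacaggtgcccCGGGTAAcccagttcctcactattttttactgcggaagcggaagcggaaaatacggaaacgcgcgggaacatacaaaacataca

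Within the Reb1 window the shape differed between temperatures. The highest depth was at 458701, at the side of nucleosome 1, at 23° and in WT in G1 (1.39 times the window mean at 23°). In WT in G2 it was at 458705, at the same side. At 37° it was at 458637, 1 base left of the motif, with 1.21. The base ratio in this window went from 1.15 at its left end to 0.770 at its right end, so the mean balances a left side that was higher and a right side that was lower at 37°.

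**Figure D1:**
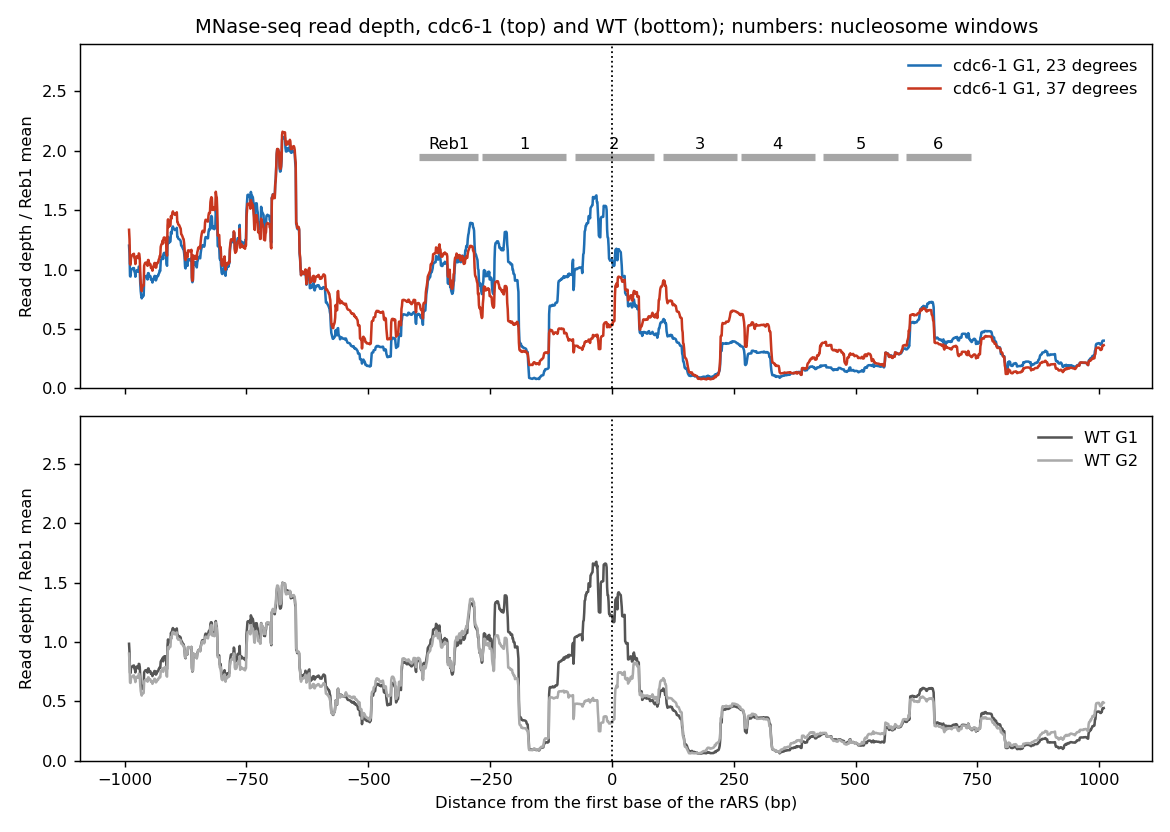
Read depth divided by the Reb1 mean (y axis) against distance from the first base of the rARS in bp (x axis), for the *cdc6-1* libraries at 23° and 37° (top) and WT in G1 and G2 (bottom), 1 library per line. Grey bars mark the Reb1 footprint and the 6 nucleosome windows. Just left of the rARS, from -79 to 0 bp, the mean is 1.297 at 23° and 1.36 in WT in G1, whereas it is 0.421 at 37° and 0.429 in WT in G2. This stretch lies inside a run picked for being lower at 37° than at 23°.

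Over the interval, the median base ratio of 37° to 23° was 1.05. A base was called lower or higher at a change of at least 1.5-fold. With Reb1 scaling, 161 of 2001 bases (8.05%) were lower at 37° and 410 (20.5%) were higher. With total depth as the scale these were 157 (7.85%) and 417 (20.8%). With the background subtracted the split turned, to 745 lower and 312 higher. The background is the lowest depth from -270 to -170 bp, at a base that was itself covered more at 37° (below). The called bases were not scattered. They formed 2 runs of 20 or more adjacent bases that were lower, with 153 of the 161 bases, and 6 runs that were higher, with all 410 bases.

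**Figure D2:**
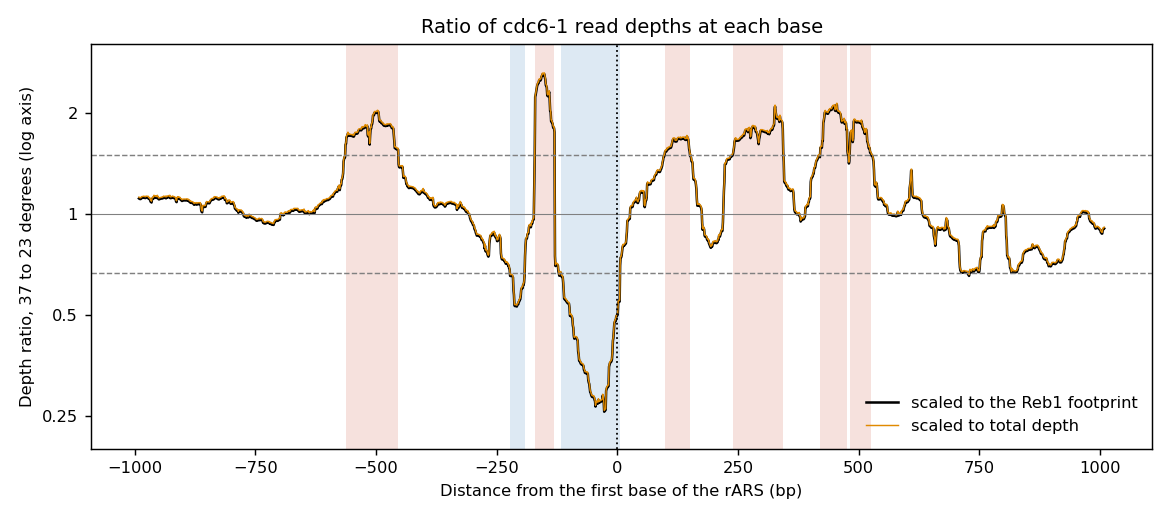
Ratio of the scaled depth at 37° to that at 23° (y axis, log scale) at each base against distance from the rARS in bp (x axis), with Reb1 scaling in black and total depth in orange. Blue bands mark the 2 runs lower at 37°, red bands the 6 runs higher, and dashed lines a 1.5-fold change. The lowest ratio, 0.258, lies just left of the rARS, between stretches on both sides in which the ratio exceeds 1.5.

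The longest lower run covered 122 bases, from position -116 to position 5 around the rARS. Its mean depth was 1.17 at 23° and 0.438 at 37°, a ratio of 0.375. The ratio was lowest at 458964, where it was 0.258. In WT the same bases had 1.19 in G1 and 0.467 in G2, and in *sir2* cells 0.717 in G1 and 0.587 in G2. The 23° library was thus next to WT in G1, and the 37° library had the lowest value of the 6, just under WT in G2. The order of the 37° and 23° libraries was fixed by the choice of the run.

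The left part of that run is also the right end of nucleosome 1, and the window left of the rARS (458821 to 458991) mixes both. In that stretch the depth was 0.882 at 23° and 0.390 at 37°, a ratio of 0.442 that was 0.275 with the background subtracted, with 121 of its bases lower and 41 higher, whereas 8.05% and 20.5% of all bases were. Leaving out nucleosome 1, a choice made after the values were seen, left the 80 bases from 458912 to 458991. All 80 were lower at 37°, which was fixed in advance, because they lie inside the longest lower run. Their depth was 1.297 at 23° and 0.421 at 37°, with a ratio of 0.325 (95% interval 0.319 to 0.330). With total depth as the scale the ratio was 0.328. The same bases had a ratio of G2 to G1 of 0.316 in WT (0.313 to 0.320), from 1.36 to 0.429, and of 0.674 in *sir2* cells (0.666 to 0.681), from 0.714 to 0.481. The site of the highest depth in these 80 bases was 458959 both at 23° and in WT in G1, with 1.63 at 23°. At 37° the maximum was at 458979 and reached 0.558.

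The window left of the rARS, which contains these 80 bases, was also compared with the 470 bases right of the rARS. At 23°, 49.4% of the depth between 458821 and 459461 lay left of or at the rARS (95% Wilson interval 49.2% to 49.6%), and 24.5% at 37° (24.4% to 24.7%). This share does not depend on the scale, but it does depend on the boundary and on the background. The difference of -24.9 points was -13.5 with the boundary 40 bp further left and -33.4 with the background subtracted. The share was 46.9% in WT in G1, 29.5% in WT in G2, 35.5% in *sir2* in G1 and 37.3% in *sir2* in G2. An even profile would give 26.7%. The 37° library had the lowest share of the 6 and the only one below that of an even profile.

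Nucleosome 1, which the study places at the c-pro initiation site, was also lower at 37° as a whole. Its window (458721 to 458901) had a ratio of 0.737 (0.727 to 0.747). Of its 181 bases, 62 were lower and 41 higher, whereas 8.05% and 20.5% of all bases were. Because 50 bases are sequenced from each end, a nucleosome-size fragment would leave blocks of 50 bases and an empty centre. Blocks from 458750 to 458799 and from 458862 to 458911, set from the rises in the 23° profile after the values were seen, are called here the blocks of nucleosome 1. Whether their reads are the ends of the same fragments was not tested, and the right block adjoins the 80 bases described above. The left block had a depth of 1.11 at 23° and 0.715 at 37°, a ratio of 0.643 (0.631 to 0.654). The right block had 0.854 and 0.464, a ratio of 0.543 (0.532 to 0.554). In WT the ratios of G2 to G1 were 0.749 and 0.714, and in *sir2* cells 0.982 and 1.17. Both blocks were lower at 37° than in any of the other 5 libraries. The shorter lower run, 31 bases from 458769 to 458799, lies inside the left block.

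Between its blocks nucleosome 1 differed in the other direction. The 41 bases from 458821 to 458861 formed a run that was higher at 37°, with a depth of 0.108 at 23° and 0.238 at 37°, a ratio of 2.21. The highest ratio of the whole interval, 2.60 at 458840, lies in this run. The other 4 libraries had depths from 0.0968 to 0.122 there, next to the 23° library and below 37°. As in the other runs, the order of the 37° and 23° libraries was fixed by the choice of the run. Over the whole centre (458800 to 458861), the depth was 0.189 of that of the blocks at 23°, 0.445 at 37°, and 0.170 to 0.242 in WT and *sir2*. The low centre that marked nucleosome 1 in 5 libraries was thus shallower in the 37° library. The lowest base of the background, 458821, is the first base of this run. Its depth was 8.85% of the Reb1 mean at 23° and 19.7% at 37°, and 6.91% to 9.67% in the other 4.

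**Figure D3:**
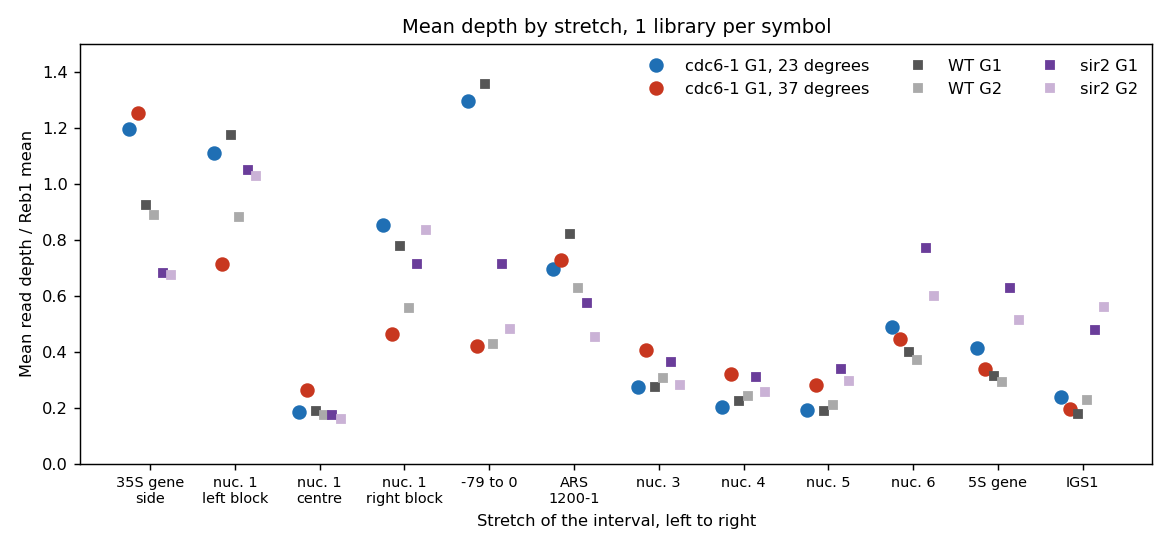
Mean read depth divided by the Reb1 mean (y axis) in 12 stretches ordered from left to right along the interval (x axis). Circles are the *cdc6-1* libraries and squares WT and *sir2*, 1 library per symbol. From -79 to 0 bp, the 23° library (1.297) lies beside WT in G1 (1.36) and the 37° library (0.421) beside WT in G2 (0.429). This stretch lies inside a run picked for being lower at 37° than at 23°. In nucleosomes 3 and 4 the 37° library is the highest of the 6.

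Where single bases mark the ends of reads, the profile rises by a step. Of the 5 largest rises in each library, 3 were shared (458079, 458241 and 458293, all in ETS1-1), and the rest were at nucleosome 1 at 23° (458750 and 458862). At 37° they were 458132 in ETS1-1 and 458997 at the origin. The rise at 458862, the start of the right block of nucleosome 1, was the largest of all at 23° and in WT and *sir2*, with 13466 reads or 45.1% of the Reb1 mean at 23°. At 37° it was 7295 reads or 16.4%, the 10th largest. The rise at 458750 was 26.9% at 23° and 13.7% at 37°. In ETS1-1 the rise at 458293 was 38.3% at 23° and 42.4% at 37°, that at 458079 was 20.7% and 25.6%, that at 458132 was 15.9% and 20.2%, and that at 458241 was 24.9% and 23.7%. The ratios of 37° to 23° were thus 0.363 and 0.511 at nucleosome 1 and between 0.955 and 1.27 in the 35S gene.

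From -80 to 120 bp, a range wider than the origin, the largest rise was at a different base at each temperature. The rise at 458997, 6 bases inside ARS1200-1 and next to the first ARS consensus site, was 7.15% of the Reb1 mean at 23° and 20.9% at 37°. It was 9.46% in WT in G1 and 17.3% in WT in G2, and 7.40% and 8.17% in *sir2* cells. It was the largest rise from -80 to 120 bp both at 37° and in WT in G2. A rise is the reads that begin at a base less those that end just before it. Reads that began at 458947 end just before 458997. The rise at 458947 was 8.58% at 23° and was not among the 5 largest in this range at 37°. How much of the difference at 458997 comes from these ending reads was not tested. In the 23° library and in WT in G1 the largest rise in that range was instead at 458968, with 15.8% and 24.4%. This base lies at -23 bp, left of ARS1200-1. It was 9.36% at 37°. The mean depth over the block from 458997 to 459046 was nearly equal, 0.871 at 23° and 0.838 at 37°, a ratio of 0.961 (0.944 to 0.979). Over all of ARS1200-1 the depth was 0.696 and 0.729, a ratio of 1.05 (1.031 to 1.06), with 6 of its 107 bases lower and 8 higher. In WT the ratio of G2 to G1 over ARS1200-1 was 0.765 (0.757 to 0.773).

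**Figure D4:**
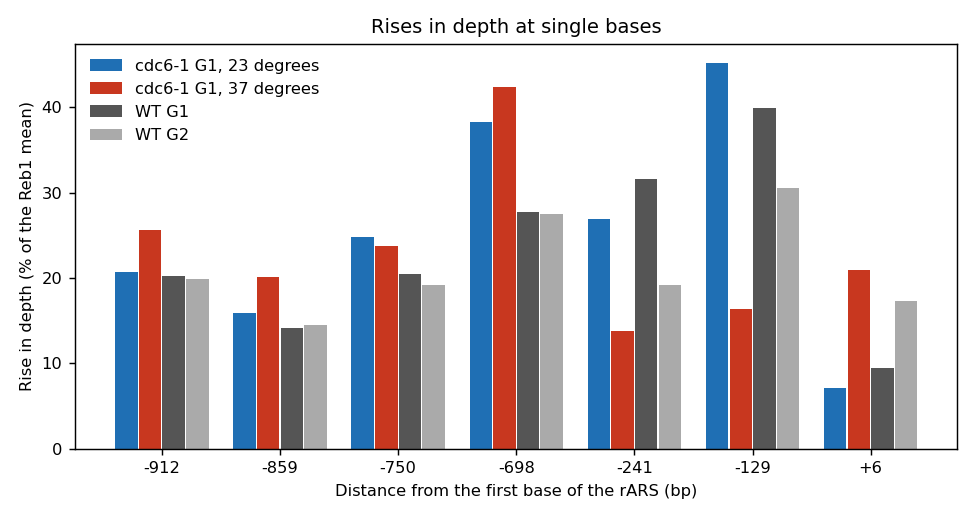
Rise in read depth from one base to the next, as a percent of the Reb1 mean (y axis), at the 7 bases that held one of the 5 largest rises at 23° or at 37°, by distance from the rARS in bp (x axis), with 1 library per bar. The rises at -241 and -129 bp, the starts of the blocks of nucleosome 1, are lower at 37° than at 23° (13.7% against 26.9%, and 16.4% against 45.1%), and the rise at +6 bp is higher (20.9% against 7.15%). Each rise is net of the reads that end just before that base.

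The second nucleosome window (458911 to 459081) spans both the footprint and the origin. Its depth was 0.994 at 23° and 0.580 at 37°, with a ratio of 0.583 (0.576 to 0.591), with 86 of its bases lower and none higher. These 86 bases end at 458996, and the base ratio reached 1.36 at the right end of the window. The difference in this window is therefore that of its left part, and its mean does not describe the origin.

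Right of the origin the 37° library was higher. The third nucleosome window (459091 to 459251) had a depth of 0.273 at 23° and 0.407 at 37°, a ratio of 1.49 (1.47 to 1.52). The fourth (459251 to 459411) had 0.203 and 0.321, a ratio of 1.58 (1.55 to 1.61), and the fifth (459421 to 459581) 0.191 and 0.282, a ratio of 1.47 (1.45 to 1.503). Of their bases, 72, 85 and 93 of 161 each were higher and none lower, whereas 20.5% of all bases were higher. In WT the ratios of G2 to G1 in these windows were 1.12, 1.09 and 1.10, and in *sir2* cells 0.775, 0.827 and 0.875. From 458992 to 459461 as a whole the depth was 0.329 at 23° and 0.436 at 37°, with a ratio of 1.33 (1.31 to 1.34). The fifth window was not higher with the background subtracted, where its ratio was 0.938.

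Of the 6 runs that were higher at 37°, 4 lay right of the rARS. They were 459090 to 459141 (ratio 1.62), 459231 to 459335 (1.74), 459412 to 459468 (1.93) and 459473 to 459517 (1.75). In the first, which starts 7 bases before the end of ARS1200-1, the depth was 0.426 at 23° and 0.691 at 37°. In the second, 105 bases long, it was 0.284 and 0.494. In each of the 4 runs the 37° library had the highest depth of the 6 libraries. That it lay above the 23° library was fixed by the choice of the runs. The 23° library was the lowest of the 6 in the runs that start at 459231 and 459412, and was within the range of WT and *sir2* in the other ones.

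The third window had a low centre at both temperatures. This centre, 50 bases or more from either end, had a depth of 0.107 at 23° and 0.111 at 37°, whereas its ends had 0.374 and 0.588. The ratio of centre to ends was 0.286 at 23° and 0.188 at 37°, and 0.191 and 0.188 in WT in G1 and G2. In the fourth window the centre was higher together with the ends, from 0.160 and 0.230 at 23° to 0.260 and 0.358 at 37°. In the fifth it was 0.163 and 0.264, with ends of 0.208 and 0.293. The first window, measured in the same way, had a centre of 0.499 and ends of 0.859 at 23°, and 0.383 and 0.620 at 37°. Its ratio of centre to ends was 0.581 at 23° and 0.618 at 37°, much closer to each other than those of the blocks of nucleosome 1, which were chosen after the values were seen.

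The base-to-base steps in depth at 37° were slid against those at 23° by as much as 40 bp to either side, and the correlation was highest at 0 bp in the Reb1 window, in all 6 nucleosome windows and left of the rARS. It was highest in the third window (r = 0.981 across 161 bases) and lowest in the second (r = 0.739 across 171 bases), where the largest rises differed. It was 0.889 in the first. Of the 20 largest rises in each library, 14 were at the same base at both temperatures. The 37° library shared 16 of its 20 largest rises with WT in G2 and 14 with WT in G1. The 23° library shared 14 with WT in G1 and 13 with WT in G2, so these counts hardly separate the 2 phases. Neighbouring bases share reads, and cut sites shared by libraries give a best shift of 0 bp, so these values do not show that nucleosomes or factors held their positions.

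Left of the Reb1 footprint, the run from 458428 to 458537 was higher at 37°, with a depth of 0.323 at 23° and 0.572 at 37°, a ratio of 1.77. It starts at the 5′ end of the 35S gene and extends into the spacer upstream of it, where the RNA polymerase I promoter lies. WT and *sir2* libraries had depths from 0.501 to 0.536 in this run. Here the 23° library stood apart as the lowest of the 6, and the 37° library was just above the other 4. The order of the 23° and 37° libraries was fixed by the choice of the run. The highest base ratio in the run was 2.01, at 458494. In WT the ratio of G2 to G1 over these bases was 1.07.

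Over ETS1-1, the part of the 35S gene in the interval, mean depths were 1.19 at 23° and 1.254 at 37°, and their ratio was 1.05 (1.04 to 1.06). Of its 433 bases none was lower and 5 were higher. Both *cdc6-1* libraries were above WT (0.926 in G1 and 0.890 in G2) and *sir2* (0.682 and 0.675). The strain, the release from nocodazole and the temperature cannot be told apart in this comparison.

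Toward the 5S gene, the pattern of the right side ended. The sixth nucleosome window (459591 to 459731) had 0.490 at 23° and 0.445 at 37°, a ratio of 0.908 (0.894 to 0.922) that was above 1 with the 5S gene (1.11) or the Reb1 maximum (1.04) as the scale. The 5S gene RDN5-1, which is transcribed by RNA polymerase III, had 0.414 and 0.337, a ratio of 0.815 (0.801 to 0.830). In WT its depth was 0.312 in G1 and 0.291 in G2. In NTS1-2 up to 460000 the depth was 0.238 at 23° and 0.194 at 37°, with a ratio of 0.817 (0.803 to 0.832), whereas the ratio of G2 to G1 in WT was 1.295. Of the 121 bases of the 5S gene 4 were lower, and of the 204 bases of NTS1-2 none was, so few bases here passed 1.5-fold.

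Over NTS2-1 as a whole the mean depth was 0.529 at 23° and 0.514 at 37°, with a ratio of 0.971 (0.961 to 0.981) and 0.980 with total depth as the scale. Ratios so near 1 depend on the scale. Those of NTS2-1, of NTS1-2, and of the block from 458997 to 459046 passed to above 1 with the 5S gene as the scale, which shifts every log2 ratio by 0.29. Those of ETS1-1 and ARS1200-1 passed to below 1 with the median base ratio as the scale, which shifts every log2 ratio by -0.08.

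Across the 40 bins of 50 bp, the ratio of 37° to 23° was lowest at 458900 to 458949 (0.335) and 458950 to 458999 (0.369), followed by 458750 to 458799 (0.643) and 458850 to 458899 (0.664). It was highest at 459400 to 459449 (1.83), 458450 to 458499 (1.82), 459450 to 459499 (1.82) and 459250 to 459299 (1.75). In WT, the ratio of G2 to G1 in the first 2 of these bins was 0.439 and 0.269, and in the 4 highest it was 1.05, 1.09, 0.970 and 1.033. The bins lowest in *cdc6-1* at 37° thus were also lower in WT in G2, and the bins highest at 37° differed little in WT.

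The WT contrast shares no library with the *cdc6-1* contrast. Of the 161 bases lower at 37°, 100 (62.1%) were also at least 1.5-fold lower in G2 than in G1 in WT, which is 82.6% of the 121 bases lower in WT. Of all 2001 bases, 6.05% were lower in WT. None of the 410 bases higher at 37° was among the 60 bases higher in WT in G2, which were 3% of all bases. Across the 17 bins from -400 to 470 bp, the log2 ratios of the 2 contrasts had r = 0.813, and r = 0.509 without the 2 bins that were 1.5-fold lower in WT. Across the 23 bins outside this range r was -0.14. For *sir2* cells r was 0.0910 inside and -0.08 outside. These bins lie in 1 interval and share fragments.

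**Figure D5:**
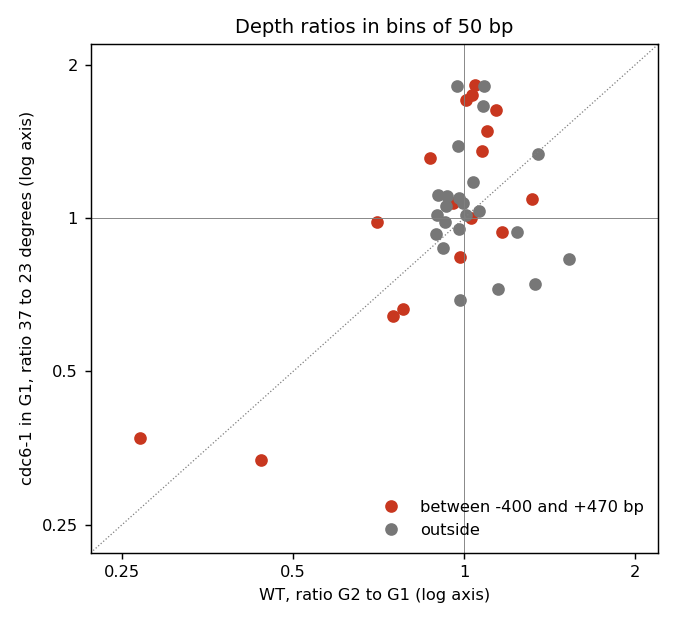
Ratio of the Reb1-scaled depth at 37° to that at 23° in *cdc6-1* cells (y axis, log scale) against the ratio of G2 to G1 in WT (x axis, log scale), with 1 point per bin of 50 bp. Red points lie from -400 to 470 bp, and the dotted line marks equal ratios. The 2 lowest bins are low on both axes (0.335 and 0.369 against 0.439 and 0.269), and the bins above 1.5 in *cdc6-1* lie near 1 in WT.

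As whole profiles, the 23° library followed WT in G1 most closely from -400 to 470 bp (r = 0.988 across 871 bases, against 0.755 with WT in G2 and 0.659 with 37°). The 37° library followed WT in G2 more closely (r = 0.925) than WT in G1 (0.668). This order did not hold for *sir2* cells, with which the 37° library had r = 0.809 in G1 and 0.759 in G2. The 23° library had 0.875 and 0.746 with them. Outside this range the 2 *cdc6-1* libraries had r = 0.979 with each other across 1130 bases. There the 37° library had r = 0.979 with WT in G1 and 0.966 with WT in G2, and the 23° library 0.956 and 0.940. The 37° library also had features that neither WT library showed. In 18 of the 40 bins it lay above the range of the other 5 libraries and in 5 below it, against 2 and 10 for the 23° library. Some margins were small. At 458650 to 458699 the 37° library had 1.055 against 1.052 at 23°, and at 458300 to 458349, in ETS1-1, 1.923 against 1.894. These counts were made with Reb1 scaling only, and margins this small depend on the scale.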

How the data were processed

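Read depth was analysed in 6 MNase-seq libraries of yeast chromatin, 1 per condition. Both ends of each fragment were read for 50 bases and mapped with gsnap. The table deposited by the authors holds coverage (signal), the unscaled number of reads over a base. It gives no fragment sizes. The submitters' processing notes list GSNAP, Picard, bedtools and sacCer3; versions are not given in the sources used here. In every library, falls in depth came 50 bp after rises. The 22 columns of other libraries were not used. RefSeq S288C coordinates, the sequence that sacCer3 holds, were used for annotation.

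Depths were divided by the mean of the Reb1 footprint and, separately, by the interval mean. Windows, including the 6 nucleosome windows, were set as distances from the rARS. The blocks of nucleosome 1 and the 80 bases right of it were chosen after values were seen. Regions named were these windows, annotated features, the 4 lowest and 4 highest bins of 50 bp, runs of 20 or more bases past 1.5-fold and the 5 largest rises in each library. Summed depth over 50 gave the reads for log-normal 95% intervals of ratios and Wilson intervals of shares. Both ends of a fragment were counted, so the intervals are too narrow. No test was made, with 1 library per temperature. Alternatives were other scalings, background subtraction, moved boundaries, other fold limits, smoothing and a filter on low depth. Windows, members and lists were chosen with earlier results of these data known. Scripts, run in Python 3.11.15 (numpy 2.4.6, pandas 2.3.3), with intervals from scipy 1.17.1 and plots from matplotlib 3.10.9, were tested on simulated data.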

Additional observations from a re-analysis of the deposited data

How the results depend on the processing

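No paired analysis was possible because each condition has 1 library, and no library could be left out. The depth ratio left of the rARS was 0.442 as reported, and it was 0.419 with the median base ratio as the scale, 0.542 with the 5S gene, 0.416 with the depth outside the origin region, 0.508 with the Reb1 maximum and 0.275 with the background subtracted. It was 0.504 and 0.526 with the boundary 40 bp further left or right, 0.419 with the outer ends moved in by 20 bp, and 0.325 without the nucleosome 1 block, an alternative added after seeing the data. Right of the rARS the ratio of 1.33 became, in the same order, 1.26, 1.63, 1.249, 1.52 and 1.23, and 1.06 and 1.48 with the moved boundaries. The left share, 24.9 points lower at 37° as reported (-24.9), was -33.4 with the background subtracted, -13.5 and -25.3 with the moved boundaries, -25.7 with the outer ends moved in and -26.1 without the nucleosome 1 block. The count of bases lower at 37°, 161, became 745 with the background subtracted, 369 at the smaller fold limit tried and 99 at 2-fold, and that of bases higher, 410, became 63 at 2-fold.

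The sixth nucleosome window, at 0.908, was 1.11 with the 5S gene and 1.04 with the Reb1 maximum as the scale, and the fifth, at 1.47, was 0.938 with the background subtracted. The first 4 windows kept their direction under all 6 scalings and subtractions tried, with ranges of 0.591 to 0.904, 0.480 to 0.715, 1.41 to 1.83 and 1.44 to 1.93. The 5S gene and the Reb1 maximum shift every log2 ratio by 0.29 and 0.20. The subtracted background was 8.85% of the Reb1 mean at 23° and 19.7% at 37°, and the Reb1 mean was taken again after subtraction. The third window's ratio was 1.54 with it, above the 1.49 reported.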
